A study of Mus musculus with 5 samples.

Results

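The genes described here encode the ligands and receptors of axon guidance, and the measurement is where ChIP-seq peaks of ZHX1 and hnRNPA1 lie around them. The members are 43 genes fixed by name: 12 semaphorins, 5 plexins, 3 Slits, 3 Robo receptors, 2 netrins, 4 netrin receptors, 8 Eph receptors, 4 ephrins and 2 neurexins. A peak belonged to a member when the gene name given with the peak in the deposited list was that member's. By this rule 504 of 89451 peaks in 3 lists were member peaks. Of 43 members, 41 had at least 1 such peak.

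Axon guidance molecules are secreted or membrane-bound cues and the receptors that read them on the surface of a moving cell or growing axon. Semaphorins signal through plexins, Slits through Robo receptors, netrins through DCC and the UNC5 family, and ephrins through Eph receptors, while neurexins join nerve cells at synapses. Many of these pairs also work in the developing heart and vessels: Sema3c and Plxnd1 act in the cardiac outflow tract, and Efnb2 and Ephb4 mark arterial and venous endothelium.

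The study asked where ZHX1, which carries zinc fingers and homeodomains, and hnRNPA1, a splicing regulator that binds RNA, sit on chromatin in cardiac differentiation, and what happens to hnRNPA1 when Zhx1 is deleted. The cells were CP (cardiac progenitor) cells grown from 46C mouse embryonic stem cells, either unedited (46C-Ctrl) or with Zhx1 deleted by CRISPR/Cas9 with guides at the start and stop of its transcription (Zhx1-KO). How many Zhx1-KO clones were used, and whether either line was compared in separate cultures, is not given in the sources used here. Both lines were differentiated through embryoid bodies with BMP4, Activin A and VEGF, followed by VEGF, FGF10 and bFGF. ChIP-seq with an antibody against ZHX1 in 46C-Ctrl gave 23244 peaks, hnRNPA1 ChIP in 46C-Ctrl gave 14662, and hnRNPA1 ChIP in Zhx1-KO gave 51545. Each was 1 library, and the 2 input libraries were not analysed here. With 1 library per group no difference between groups can be tested, and no p-value is given. The lists hold positions and gene names with no score or read count, so the depth is unknown, and the length of a list and the condition cannot be told apart. All intervals are 95% intervals that cover counting error only. Nothing in the lists measures expression, so whether these cells used any of the members was not tested.

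Of the ZHX1 peaks in 46C-Ctrl, 124 were named for members, 0.533% of that list (Wilson interval 0.448 to 0.636%). Of the hnRNPA1 peaks in 46C-Ctrl, 72 were named for members, 0.491% (0.390 to 0.618%). Of the hnRNPA1 peaks in Zhx1-KO, 308 were named for members, 0.598% (0.535 to 0.668%). The intervals of the 3 shares overlapped. Member peaks covered 34.7 kb, 21.2 kb and 91.8 kb in these lists, in the same order, so a member peak was a short stretch. Their median width was 247, 272.5 and 270.0 bp, beside 259, 257 and 271 bp over all peaks of each list.

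Between the hnRNPA1 lists, the number of member peaks was 4.28 times higher in Zhx1-KO than in 46C-Ctrl (3.30 to 5.61). The whole Zhx1-KO list was 3.52 times longer than the 46C-Ctrl list, a value inside that interval. Counted by peaks inside the gene bodies in place of the deposited name, the ratio was 3.27 (2.41 to 4.49), below that of the list lengths, so the side of the list ratio on which the members stood depended on how peaks were assigned. By deposited name, 33 members had more hnRNPA1 peaks in Zhx1-KO than in 46C-Ctrl and 2 had the same number in both (Sema4d and Sema5a). Another 3 had fewer (Slit1, Epha4 and Efna1) and 5 had none in either (Sema3f, Sema6a, Ntn4, Ephb1 and Efnb1). The same counts were not taken over all protein-coding genes, and the Zhx1-KO list is the longer one, so they set the members apart from no other genes. By gene body some of these genes changed group. Slit1 held 3 hnRNPA1 peaks in 46C-Ctrl and 4 in Zhx1-KO, Epha4 1 and 2, Sema3f 0 and 2, and Ephb1 3 and 7. Efna1 kept fewer, with 1 and 0. Of the 26 members named in the 46C-Ctrl hnRNPA1 list, 13 had a Zhx1-KO to 46C-Ctrl ratio above that of the list lengths and 13 had a lower one. Members without a 46C-Ctrl hnRNPA1 peak have no such ratio. Leaving them out removes only genes with more peaks in Zhx1-KO or none in either list, so this split does not place the members as a whole. The ZHX1 list held 1.72 times as many member peaks as the 46C-Ctrl hnRNPA1 list, beside 1.59 times as many peaks in all, and by gene body this ratio was 1.38 (0.962 to 1.98), again on the other side of the list ratio.

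**Figure D1:**
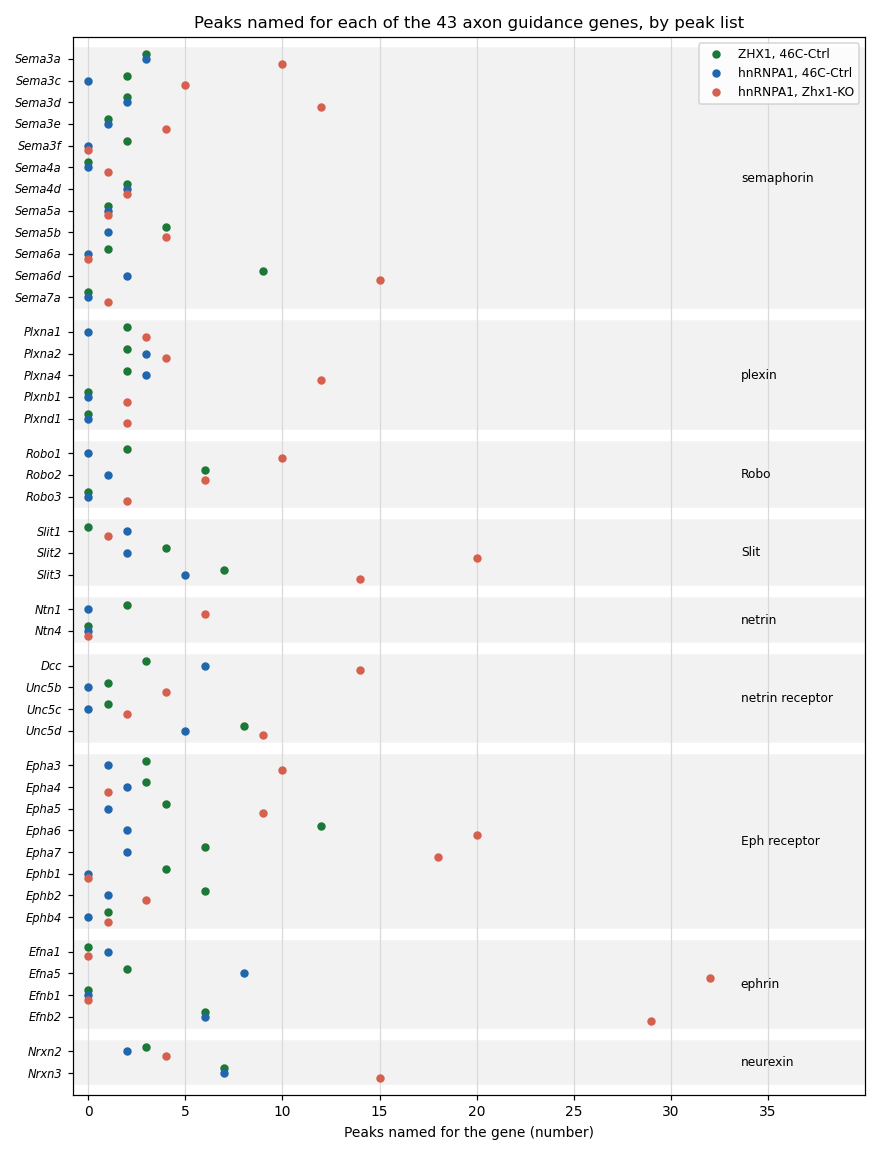
Number of peaks named for each of the 43 members (x axis, peaks) in the 3 lists, with genes grouped by family and 1 dot per list. Efna5 with 32 and Efnb2 with 29 peaks in the Zhx1-KO hnRNPA1 list lie farthest to the right, and Ntn4 and Efnb1 have 0 in every list.

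Member peaks of different lists rarely sat at the same place. With an overlap of at least 1 bp, 7 positions were found in a pair of lists, at 5 members, and none was found in all 3 lists. Only 1 of the 72 member peaks of hnRNPA1 in 46C-Ctrl overlapped a peak in Zhx1-KO, 1.39% (0.246 to 7.46%), beside 4.41% of all peaks in that list. The same number, 1 of 72, overlapped a ZHX1 peak, beside 4.12% of all. From the ZHX1 side, 5 of 124 member peaks overlapped an hnRNPA1 peak in Zhx1-KO, 4.03% (1.73 to 9.09%) beside 4.42% of all, and 1 of 124 overlapped an hnRNPA1 peak in 46C-Ctrl, 0.806% (0.142 to 4.43%) beside 2.60% of all. From the Zhx1-KO side, 5 of 308 overlapped a ZHX1 peak, 1.62% (0.695 to 3.74%) beside 1.99%, and 1 of 308 an hnRNPA1 peak in 46C-Ctrl, 0.325% (0.0573 to 1.82%) beside 1.26%. Every one of these intervals held the value of the whole list. So the same members were named again in another list mostly at other positions, and this low overlap was not set apart from that of the whole lists. From an hnRNPA1 member peak in 46C-Ctrl, the nearest hnRNPA1 peak in Zhx1-KO was a median of 16.3 kb away. This distance was not taken over all peaks.

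Plxna4, a plexin that pairs with neuropilins to receive class 3 semaphorins, held 2 of the 3 shared positions that lie in sequence with a copy number of 1 in the genome, and the other was at Slit2. Its gene lies on the minus strand (GRCm38, chr6:32144268-32588192), and both shared positions lie upstream of it in no annotated gene. At 75.6 kb upstream, hnRNPA1 peaks of 46C-Ctrl (262 bp) and Zhx1-KO (425 bp) overlapped over 262 bp, the whole of the 46C-Ctrl peak. At 167 kb upstream, a ZHX1 peak of 417 bp and a Zhx1-KO hnRNPA1 peak of 316 bp overlapped over 210 bp. These sequences are shown because they are where member peaks of different lists met in unique sequence that is no UTR, and capitals mark the bases that both peaks hold, with 15 bases on either side in lower case, on the plus strand of GRCm38.
Plxna4, 46C-Ctrl and Zhx1-KO hnRNPA1, chr6:32663663-32663954: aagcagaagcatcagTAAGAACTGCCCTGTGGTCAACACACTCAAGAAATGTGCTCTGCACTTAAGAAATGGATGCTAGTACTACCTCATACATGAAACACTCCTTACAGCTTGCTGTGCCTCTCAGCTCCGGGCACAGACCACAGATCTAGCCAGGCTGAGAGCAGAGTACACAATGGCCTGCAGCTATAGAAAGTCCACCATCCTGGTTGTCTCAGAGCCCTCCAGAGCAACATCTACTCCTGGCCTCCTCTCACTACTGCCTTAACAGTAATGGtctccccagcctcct
Plxna4, ZHX1 and Zhx1-KO hnRNPA1, chr6:32755371-32755610: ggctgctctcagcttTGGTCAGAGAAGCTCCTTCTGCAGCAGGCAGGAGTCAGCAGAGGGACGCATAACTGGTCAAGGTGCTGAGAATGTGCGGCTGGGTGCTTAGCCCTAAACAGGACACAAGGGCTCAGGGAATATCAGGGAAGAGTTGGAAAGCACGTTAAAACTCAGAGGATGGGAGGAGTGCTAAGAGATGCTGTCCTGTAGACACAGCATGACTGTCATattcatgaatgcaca
The first stretch held no TAGGG, which is the hnRNPA1 core motif written as DNA, and no CCAAT, which NF-Y binds, on either strand. The second held 1 TAGGG and no CCAAT.

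The other 4 shared positions lay in repeated sequence. Copy number here was found by looking up every 32-base word of a peak on both strands of GRCm38 and taking the median number of occurrences. Unc5d encodes a netrin receptor, and in its intron 24.2 kb from the gene start a ZHX1 and an hnRNPA1 peak of 46C-Ctrl overlapped over 248 bp, the whole ZHX1 peak. Their words occurred 3951 and 3934 times in the genome. The nearest hnRNPA1 peak in Zhx1-KO, chr8:29194241-29194797, lay 932 bp from the 46C-Ctrl one, centre to centre. At Robo2, a Slit receptor, a ZHX1 and a Zhx1-KO hnRNPA1 peak overlapped over 122 bp, 560.1 kb upstream, with 2184 and 1844 copies. Epha7, an Eph receptor of the A class, had 2 such positions. The pair at 400.0 kb upstream had 76 and 181 copies. Shared sequences of Unc5d, Robo2 and this Epha7 position, with the same use of capitals, are these.
Unc5d, ZHX1 and hnRNPA1 of 46C-Ctrl, chr8:29195309-29195586: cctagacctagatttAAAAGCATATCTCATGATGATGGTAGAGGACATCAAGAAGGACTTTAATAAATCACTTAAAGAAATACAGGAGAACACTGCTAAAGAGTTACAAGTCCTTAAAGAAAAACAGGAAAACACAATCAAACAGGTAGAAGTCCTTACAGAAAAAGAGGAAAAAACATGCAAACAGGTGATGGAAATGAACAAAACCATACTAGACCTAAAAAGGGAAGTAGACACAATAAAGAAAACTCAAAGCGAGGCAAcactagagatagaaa
Robo2, ZHX1 and Zhx1-KO hnRNPA1, chr16:74971794-74971945: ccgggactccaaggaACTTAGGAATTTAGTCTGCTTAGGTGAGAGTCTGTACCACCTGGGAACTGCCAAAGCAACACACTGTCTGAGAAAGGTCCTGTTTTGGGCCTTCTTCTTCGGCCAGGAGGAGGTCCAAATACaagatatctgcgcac
Epha7 at 400.0 kb, ZHX1 and Zhx1-KO hnRNPA1, chr4:28413113-28413314: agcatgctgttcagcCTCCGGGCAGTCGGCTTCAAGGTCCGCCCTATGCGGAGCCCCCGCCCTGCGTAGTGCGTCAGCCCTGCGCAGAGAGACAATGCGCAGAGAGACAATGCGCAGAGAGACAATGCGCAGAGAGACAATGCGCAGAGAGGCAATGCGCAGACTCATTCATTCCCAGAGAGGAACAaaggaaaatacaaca
The last of these repeated the 11-base word CAATGCGCAGA 5 times within the shared stretch, while no 11-base word occurred more than 1 time in the other shared stretches shown. It also held 1 TAGGG, and the Unc5d and Robo2 stretches held no TAGGG and no CCAAT.

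Slit2, a secreted ligand of Robo receptors, was the only member with a peak near a transcript start in all 3 lists. The gene lies at chr5:47983138-48307733 on the plus strand. The hnRNPA1 peak of 46C-Ctrl was chr5:47983311-47983662, 0.349 kb after the gene start. The ZHX1 peak was chr5:47984402-47984687, 1.41 kb after it, and the first of 2 Zhx1-KO hnRNPA1 peaks was chr5:47984269-47984525, 1.26 kb after it. The ZHX1 and Zhx1-KO peaks overlapped over 124 bp, and the 46C-Ctrl hnRNPA1 peak lay 910 bp from the Zhx1-KO one, centre to centre, without overlap. All 3 lay in annotated UTR of Slit2, in sequence with a copy number of 1. The second Zhx1-KO peak, chr5:47985935-47986275, lay in an intron, 2.97 kb after the gene start.

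A promoter peak is a peak whose centre lies within 2 kb of the TSS of any annotated transcript of the gene (GENCODE M21), whatever its deposited name, and TSS inside the gene count too. In the ZHX1 list 10 members had one, beside 11.9% of 20418 protein-coding genes, which is 23.3% of the members. In the 46C-Ctrl hnRNPA1 list 3 members had one, 6.98% of them beside 6.53%. In the Zhx1-KO hnRNPA1 list 13 members had one, 30.2% beside 20.7%. The members' number of TSS was not set beside that of other genes.

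The 10 members with a ZHX1 promoter peak were Sema4d, Sema5b, Sema6a, Sema6d, Plxna2, Slit2, Epha7, Ephb1, Nrxn2 and Nrxn3. Within 1 kb of the start of the gene itself lay the ZHX1 peaks of Sema5b at 0.293 kb, Epha7 at 0.164 kb and Ephb1 at 0.436 kb, with a further Sema5b peak at 0.952 kb. Others lay at TSS far inside the gene: Sema6d at 563.5 kb and Nrxn3 at 1091 kb from the first TSS. Nrxn2 had 3 ZHX1 promoter peaks, at 11.8, 34.4 and 80.9 kb.

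The 3 members with an hnRNPA1 promoter peak in 46C-Ctrl were Slit2, Robo2 and Nrxn3. The Robo2 peak lay at an internal TSS 450.1 kb into the gene, in coding sequence, and was named Mir691 in the list. The Nrxn3 peak, chr12:88721669-88722414, lay 0.834 kb upstream of the gene start. At 746 bp it was the widest of all 504 member peaks and held 3 TAGGG and 3 CCAAT on either strand.

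The 13 members with an hnRNPA1 promoter peak in Zhx1-KO were Sema3f, Sema4d, Sema6d, Plxna1, Plxna4, Plxnb1, Robo1, Slit2, Slit3, Ntn1, Unc5d, Epha7 and Ephb1. Upstream of the gene start lay those of Slit3 at 0.633 kb, Plxna4 at 0.581 kb, Plxnb1 at 0.525 kb, Unc5d at 1.40 kb and Sema6d at 1.69 kb. Slit3, Ntn1, Plxnb1 and Slit2 had 2 each. Promoter peaks in more than 1 list were seen at Sema4d, Sema6d, Epha7 and Ephb1 (ZHX1 and Zhx1-KO hnRNPA1), Nrxn3 (ZHX1 and 46C-Ctrl hnRNPA1) and Slit2. Apart from Slit2, the promoter peaks of these members did not overlap: those of Epha7 lay 0.164 and 2.43 kb from the gene start, those of Ephb1 0.436 and 412.2 kb, and those of Sema4d 80.3 and 15.9 kb, ZHX1 first. DNA at the centre of such peaks is shown for Nrxn3 and Sema6d, as examples in which different lists marked different starts of 1 gene, with TAGGG and CCAAT of either strand in capitals.
Nrxn3, ZHX1, internal TSS, chr12:89813606-89813705: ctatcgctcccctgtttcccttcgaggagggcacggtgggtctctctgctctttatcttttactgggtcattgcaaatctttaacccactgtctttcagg
Nrxn3, 46C-Ctrl hnRNPA1, upstream of the gene, chr12:88721992-88722091: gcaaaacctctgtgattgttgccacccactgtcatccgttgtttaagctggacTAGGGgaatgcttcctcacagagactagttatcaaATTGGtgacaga
Sema6d, ZHX1, internal TSS, chr2:124653443-124653542: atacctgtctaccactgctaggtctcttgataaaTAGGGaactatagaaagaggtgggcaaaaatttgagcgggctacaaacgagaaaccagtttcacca
Sema6d, Zhx1-KO hnRNPA1, upstream of the gene, chr2:124088232-124088331: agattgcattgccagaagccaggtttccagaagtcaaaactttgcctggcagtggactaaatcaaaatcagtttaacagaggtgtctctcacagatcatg
The centre of the Nrxn3 hnRNPA1 peak held 1 TAGGG and 1 CCAAT, that of the Sema6d ZHX1 peak held 1 TAGGG, and the other 2 held neither.

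Most member peaks lay far from any start of the gene they were named for. Of all 504, 319 lay outside the gene they were named for, 63.3% (59.0 to 67.4%), the same share as among all peaks named for protein-coding genes (63.3%). In no gene at all lay 66 of the 124 ZHX1 peaks (53.2%), 40 of the 72 hnRNPA1 peaks in 46C-Ctrl (55.6%) and 170 of the 308 in Zhx1-KO (55.2%). The median distance to the nearest TSS of the named gene was 108.2 kb, 109.8 kb and 180.8 kb in this order. More than 100 kb away lay 52.4%, 52.8% and 65.3% of the member peaks. The most distant were 1749, 1729 and 1859 kb away. The shares in no gene and these distances were not taken over all peaks, so whether they are particular to the members was not tested.

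**Figure D2:**
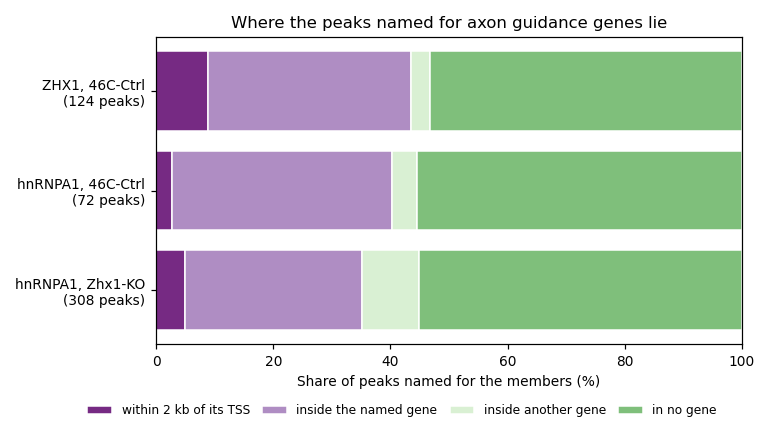
Share of member peaks (x axis, %) by position in each list: within 2 kb of a TSS of the named gene, inside that gene, inside another gene, or in no gene. The part in no gene is the widest in every list, at 53.2%, 55.6% and 55.2%.

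The number of peaks followed how much genome lies nearest to a gene. The deposited name is, for 91.2 to 94.4% of member peaks, the gene with the nearest curated RefSeq TSS. A gene that stands alone in a large gene-poor region therefore takes every peak of that region. The stretch nearest to a member's TSS had a median length of 0.264 Mb, beside 0.0423 Mb for all protein-coding genes, and the median gene length was 188.4 kb beside 18.3 kb. Across the 43 members, Spearman's rho between the number of named peaks and this stretch was 0.70 for ZHX1, 0.64 for hnRNPA1 in 46C-Ctrl and 0.78 for hnRNPA1 in Zhx1-KO, as a description of genes that share 1 library each.

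Counted this way, 34 members were named in the ZHX1 list, 79.1% beside 43.0% of protein-coding genes. In the 46C-Ctrl hnRNPA1 list 26 were named, 60.5% beside 33.1%, and in the Zhx1-KO list 37, 86.0% beside 61.2%. A peak inside the gene body was found at 31, 25 and 34 members, beside 28.7%, 20.9% and 43.1% of protein-coding genes. The same shares were then read among genes with a like length of nearest genome. Where this stretch was 1 Mb or more, 9 of 9 members and 94.4% of 160 genes had a ZHX1 peak in it, 8 of 9 and 88.1% had an hnRNPA1 peak in 46C-Ctrl, and 9 of 9 and 96.2% had one in Zhx1-KO. Where it was under 0.1 Mb, 4 of 12 members (33.3%) and 32.4% of 15670 genes had a ZHX1 peak, 3 of 12 and 23.3% an hnRNPA1 peak in 46C-Ctrl, and 9 of 12 and 51.7% one in Zhx1-KO. Between 0.1 and 0.3 Mb the shares were 11 of 12 members beside 72.4% of genes for ZHX1, 6 of 12 beside 57.3% for hnRNPA1 in 46C-Ctrl, and 9 of 12 beside 90.2% in Zhx1-KO. Between 0.3 and 1 Mb they were 10 of 10 beside 88.6%, 9 of 10 beside 79.7% and 10 of 10 beside 98.0%. In most of these classes the members stood within 1 or 2 genes of the share of all genes, and the exceptions were ZHX1 peaks between 0.1 and 0.3 Mb and Zhx1-KO hnRNPA1 peaks under 0.1 Mb.

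**Figure D3:**
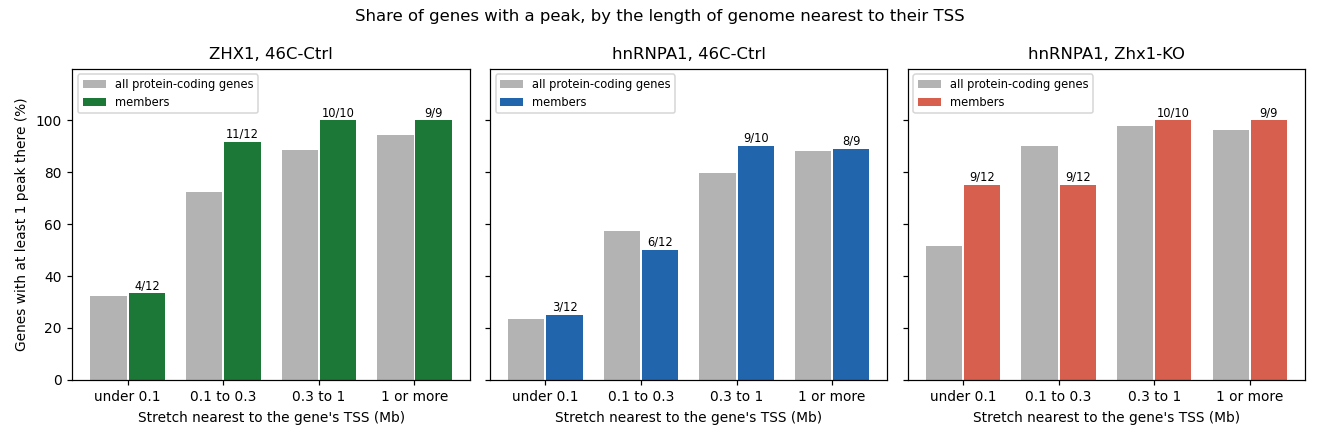
Share of genes (y axis, %) with at least 1 peak in the stretch of genome nearest to their TSS, by the length of that stretch (x axis, Mb), for all protein-coding genes in grey and the members in colour, with members over all members above each bar. The share of all genes climbs with the stretch in both 46C-Ctrl lists, in the ZHX1 list from 32.4% of genes and 4 of 12 members under 0.1 Mb to 94.4% and 9 of 9 at 1 Mb or more, and in the Zhx1-KO list it stands at 98.0% and 96.2% in the last 2 classes.

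Per length of genome, summed over all members, peaks were sparser than around all protein-coding genes, but not among genes with a like length of nearest genome in every class. The stretches nearest to the members' TSS add up to 21.6 Mb, 0.815% of the genome. They held 5.51 ZHX1 peaks per Mb (Poisson interval 4.57 to 6.60), beside 8.89 over all protein-coding genes. For hnRNPA1 the density was 3.10 per Mb (2.41 to 3.94) beside 5.62 in 46C-Ctrl, and 13.3 per Mb (11.8 to 14.9) beside 19.6 in Zhx1-KO. Where the stretch was 1 Mb or more, the members had 3.95, 2.26 and 10.96 peaks per Mb in the 3 lists, beside 4.12, 2.21 and 9.76 around all genes of that class. Between 0.3 and 1 Mb they had 5.20, 3.47 and 13.9 beside 6.87, 4.24 and 16.3, and between 0.1 and 0.3 Mb 13.4, 5.38 and 20.2 beside 9.79, 6.12 and 21.4. Under 0.1 Mb they had 11.7, 8.37 and 30.1 beside 12.1, 7.96 and 25.5. Density thus fell with the length of the stretch around all genes, and the members lay above all genes in 5 of these 12 values. Inside the gene bodies, 12.7 Mb in all, it was 6.06 (4.79 to 7.58), 4.41 (3.33 to 5.73) and 14.4 (12.4 to 16.6) per Mb, beside 9.78, 6.28 and 21.0 in all protein-coding genes. In protein-coding genes of 200 kb or more, it was 7.23, 4.73 and 16.8 per Mb, so long genes as a class had sparser peaks too. The members are of any length, so these values are not matched to them. Members of 0.2 to 0.4 Mb had 2.87, 2.87 and 8.13 beside 8.61, 5.86 and 19.0 in all genes of that length. Those of 0.4 Mb or more had 4.73, 4.02 and 13.1 beside 6.24, 3.93 and 15.2. From 0.05 to 0.2 Mb they had 15.2, 7.58 and 25.5 beside 10.1, 6.58 and 21.9. Under 0.05 Mb they had 9.99, 6.66 and 26.65 beside 13.6, 8.45 and 27.0.

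**Figure D4:**
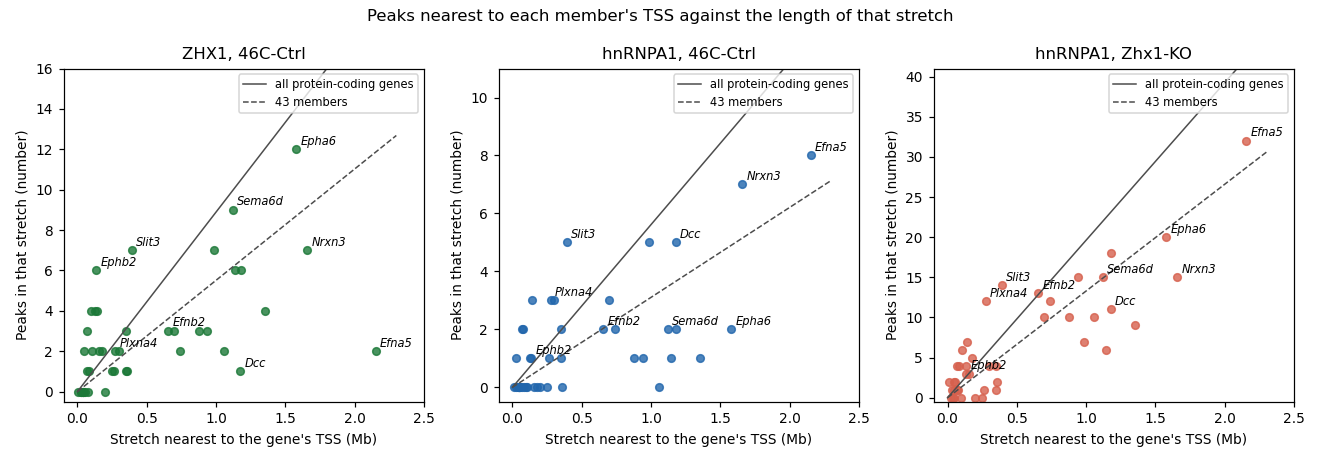
Peaks in the stretch of genome nearest to each member's TSS (y axis, number) against the length of that stretch (x axis, Mb), 1 dot per member and 1 panel per list. The solid line is the density over all protein-coding genes and the dashed line that over the 43 members, 8.89 and 5.51 per Mb for ZHX1, 5.62 and 3.10 for hnRNPA1 in 46C-Ctrl, and 19.6 and 13.3 for hnRNPA1 in Zhx1-KO.

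Across the lists, 24 members were named in both 46C-Ctrl lists, 55.8% beside 21.2% of protein-coding genes. All 24 were also named in Zhx1-KO, so 24 were named in all 3 lists beside 19.0% of genes. Named in both 46C-Ctrl lists and not in Zhx1-KO were 0 of 43, which lies near the 2.19% of all genes. Named in Zhx1-KO only were 5 members beside 19.1% of genes: Sema4a, Sema7a, Plxnb1, Plxnd1 and Robo3. By position, however, the Sema4a body held 1 hnRNPA1 peak of 46C-Ctrl, named Mir7011, and no Zhx1-KO peak. The bodies of Sema7a, Plxnb1, Plxnd1 and Robo3 held no 46C-Ctrl peak. Named in no list were 2 beside 26.0%. These were Ntn4, a netrin of basement membranes, and Efnb1, an ephrin of the B class on the X chromosome. The Ntn4 gene body did hold 1 ZHX1 peak, which was named Gm15915, and Efnb1 held no peak of any list. The shares of all genes given here were not matched for the length of nearest genome, whose median is longer for the members. Whether these shares set the members apart from genes with a like stretch was not tested.

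The 12 semaphorins, the ligands of plexins, held 27 ZHX1 peaks, 12 hnRNPA1 peaks in 46C-Ctrl and 55 in Zhx1-KO. Sema6d, a membrane semaphorin known from heart tube development, had the most by name, with 9, 2 and 15 in this order. Of its 26 named peaks, 24 lay outside the gene. By position its body held 1, 2 and 8, most of the hnRNPA1 ones named 4930583P06Rik or 4930517E11Rik. Among the secreted class 3 genes, Sema3a had 3, 3 and 10 peaks, Sema3d had 2, 2 and 12, Sema3c had 2, 0 and 5, and Sema3e had 1, 1 and 4. Sema3d peaks lay mostly in no gene, 14 of 16 outside it, while the 3 hnRNPA1 peaks of Sema3a in 46C-Ctrl all lay inside, 283.3 to 401.5 kb from its start. Sema3f had 2 ZHX1 peaks and no hnRNPA1 peak by name, though 2 Zhx1-KO hnRNPA1 peaks named Gnat1 lay in its body. Sema5b had 4, 1 and 4 peaks, all 9 inside the gene, and Sema5a had 1 in each list, also inside. Sema4d had 2 in each list. Sema6a had 1 ZHX1 peak only, and Sema4a and Sema7a had 1 Zhx1-KO peak each by name, 14.9 and 13.9 kb upstream.

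The 5 plexins, receptors of semaphorins, held 6, 6 and 23 peaks. Plxna4 had 2, 3 and 12, and all 5 in 46C-Ctrl lay 75.6 to 199.4 kb upstream of the gene. Its body held further peaks under other names, 4 ZHX1, 2 hnRNPA1 in 46C-Ctrl and 8 in Zhx1-KO, named 1700012A03Rik or Plxna4os1. Plxna2 had 2, 3 and 4 peaks and included the next widest hnRNPA1 member peaks of 46C-Ctrl, 531 bp at 174.4 kb and 501 bp at 81.2 kb upstream. The first had a copy number of 1 and the other of 160.5. Plxna1 had 2, 0 and 3. Plxnb1 and Plxnd1 had 2 Zhx1-KO peaks each, and those of Plxnb1 lay 0.525 kb upstream and 0.312 kb past the gene start.

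The 3 Slits held 11, 9 and 35 peaks and the 3 Robo receptors 8, 1 and 18. Slit2 had 4, 2 and 20, of which 21 of 26 lay outside the gene, up to 935.7 kb upstream. Slit3 had 7, 5 and 14 by name. Counted by position, its body held 9, 12 and 28, and of these 3, 9 and 17 were named Mir218-2, a microRNA gene within Slit3, and 1 of Zhx1-KO was named Pank3. Slit3 and Ntn1 lie on chromosome 11, which held 15.2, 10.9 and 40.8 peaks per Mb in the 3 lists beside 8.78, 5.54 and 19.5 over the genome, and the part of this in the Slit3 counts was not tested. Slit1 had 0, 2 and 1 by name, all inside the gene, while its body held 0, 3 and 4 by position. Robo1 had 2, 0 and 10 peaks, none upstream of the gene start. Robo2 had 6, 1 and 6 by name, and 12 of these 13 lay upstream of the gene. By position its body held 1, 2 and 5, of which 1, 2 and 4 were named Mir691. Its ZHX1 peak of 653 bp, 362.7 kb upstream, was the widest ZHX1 member peak and had a copy number of 1263. The widest but 1 was a Robo1 peak of 599 bp, 1175 kb past its start, with a copy number of 1. Robo3, which sets midline crossing, had 2 Zhx1-KO peaks only, both in repeated sequence 11.9 and 13.2 kb upstream.

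The 2 netrins held 2, 0 and 6 peaks, all at Ntn1 and all inside it. Peaks named Mir6406 added 3, 2 and 3 to the Ntn1 body. The 4 netrin receptors held 13, 11 and 29. Dcc, which mediates attraction to netrin, had 3, 6 and 14, and Unc5d, which mediates repulsion, had 8, 5 and 9. All 5 Unc5d peaks of hnRNPA1 in 46C-Ctrl, 4 of its 8 ZHX1 peaks and 6 of its 9 Zhx1-KO peaks lay in multi-copy sequence, a copy number of 2 or more. Unc5b had 1, 0 and 4 and Unc5c 1, 0 and 2. A Unc5b peak in Zhx1-KO reached 608 bp.

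The 8 Eph receptors held 39, 9 and 62 peaks, and the 4 ephrins 8, 15 and 61. The receptors thus had 4.33 times as many ZHX1 as 46C-Ctrl hnRNPA1 peaks, and the ephrins 0.533 times, beside 1.59 over the whole lists, and this contrast was noticed after the values were seen. The ephrin value rests mostly on Efna5, with 2 ZHX1 and 8 hnRNPA1 peaks, as Efnb2 had 6 of each. The Robo family stood at 8.0 times, on 1 hnRNPA1 peak. By gene body, the Robo family held 2 ZHX1 and 2 hnRNPA1 peaks of 46C-Ctrl. The ephrins held 0 and 2 by this count, and the Eph receptors 22 and 6. Among the receptors, Epha6 had 12, 2 and 20 peaks, the most of any member for ZHX1, spread from 1071 kb upstream to 446.3 kb into the gene. Epha7 had 6, 2 and 18, of which 24 of 26 lay outside the gene, all of those upstream. Epha3 had 3, 1 and 10, Epha5 had 4, 1 and 9, and Ephb2 had 6, 1 and 3. Epha4 had 3, 2 and 1 by name, all upstream, while its body held 1, 1 and 2 peaks named Mir6352. The Zhx1-KO peak named for Epha4, 738 bp wide and 290.1 kb upstream, was the widest member peak in that list. Ephb4 had 1, 0 and 1. Ephb1 had 4, 0 and 0 by name but 5, 3 and 7 in its body, and the 3, 3 and 7 of these that lack its name were named Mir7243.

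Among the ephrins, Efna5 had 2, 8 and 32 peaks and Efnb2 had 6, 6 and 29. These are the largest counts of any members in the Zhx1-KO list, and Efna5 also led the 46C-Ctrl hnRNPA1 list. Efna5 takes the peaks of 2.15 Mb, the longest stretch of any member, in which Zhx1-KO hnRNPA1 peaks stood at 14.9 per Mb, ZHX1 peaks at 0.930 and 46C-Ctrl hnRNPA1 peaks at 3.72. All 3 densities were below those of all protein-coding genes. Genes with a stretch of 1 Mb or more had 9.76, 4.12 and 2.21 per Mb in this order. Beside these, only the ZHX1 density of Efna5 was lower, and both hnRNPA1 densities were higher. None of the 41 Efnb2 peaks lay in the gene, which is 43.8 kb long; they ran from 6.12 kb upstream to 1771 kb past the start. In the annotation used here 23 of the 41 lay nearer to another gene, Gm17215, and counting only the other 18, the density in its 0.655 Mb was 4.58, 3.05 and 19.9 per Mb. A Zhx1-KO peak named for Efnb2, 729 bp wide and 978.2 kb past the gene start, was the next widest member peak in that list after Epha4 and had a copy number of 546.5. The third, 670 bp at Epha6, had a copy number of 74.0. Efna1 had 1 hnRNPA1 peak, in 46C-Ctrl.

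The 2 neurexins, synaptic adhesion receptors, held 10, 9 and 19 peaks. Nrxn3 had 7, 7 and 15, of which 5 of 29 lay outside a gene of 1612 kb, so that most of its peaks sat inside the gene. Its density was 4.22, 4.22 and 9.05 per Mb. Nrxn2 had 3, 2 and 4.

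**Figure D5:**
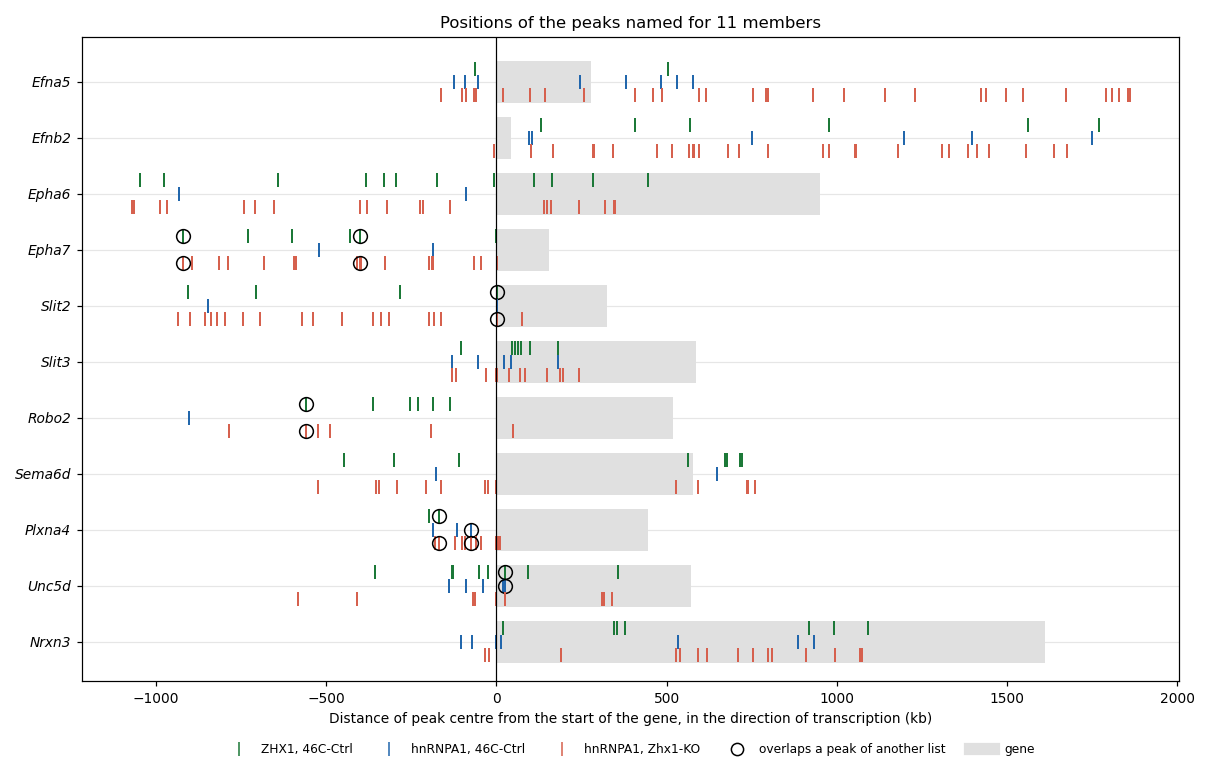
Positions of the named peaks of 11 members as distance from the gene start (x axis, kb, positive in the direction of transcription), 1 row of ticks per list, with the gene as a grey bar and circles on peaks that overlap a peak of another list. The Efnb2 and Efna5 ticks run on to 1771 and 1860 kb past the start, the Epha7 and Robo2 ticks lie almost all upstream, and most Nrxn3 ticks lie within the gene.

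In copy number and short motifs, member peaks were like those of the whole lists. Multi-copy sequence held 21.8% of ZHX1 member peaks (15.4 to 29.8%) beside 25.2% of all, 22.2% of those of hnRNPA1 in 46C-Ctrl (14.2 to 33.1%) beside 24.4%, and 32.8% in Zhx1-KO (27.8 to 38.2%) beside 31.4%. TAGGG, on either strand, stood in 33.1%, 30.6% and 37.99% of member peaks beside 34.5%, 35.0% and 35.3% of all. CCAAT, on either strand, stood in 33.9%, 34.7% and 39.6% beside 36.4%, 36.3% and 38.2%. A G-quadruplex motif (4 G-runs, each 3 bases or longer, joined by loops no longer than 7) stood in 7.26%, 1.39% and 3.57% beside 4.78%, 3.90% and 5.52%. These were 9, 1 and 11 peaks, and the intervals of the shares (3.87 to 13.2%, 0.246 to 7.46% and 2.01 to 6.28%) held the values of the whole lists. Mean GC content was 45.7%, 44.8% and 47.2% beside 46.8%, 46.9% and 48.9%.

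Of 67 other genes of the pathway (further semaphorins, plexins, neuropilins, netrins, Ephs and ephrins, neurexins and neuroligins, and intracellular partners), 39 were named in the ZHX1 list, 31 in the 46C-Ctrl hnRNPA1 list and 47 in the Zhx1-KO list, 58.2%, 46.3% and 70.1%, between the members and all protein-coding genes in every list. Promoter peaks stood at 15, 6 and 27 of them, 22.4%, 8.96% and 40.3% beside 11.9%, 6.53% and 20.7% of protein-coding genes. Neither set of shares was matched for the length of nearest genome or for the number of TSS. In both 46C-Ctrl lists and not in Zhx1-KO were 2, Draxin and Plxnb2, 2.99% beside 2.19% of all genes. By position, however, Plxnb2 had a promoter peak in all 3 lists, as did Vav2, an exchange factor downstream of Eph receptors, with each list's peak at another TSS or position. Peaks of different lists that carry the same name overlapped at, among others, Flrt2, Vav3, Nlgn1 and Dock1. The pairs at Flrt2 (131 and 135 copies), Vav3 (3048 and 2266) and Nlgn1 (3 and 4) lay in multi-copy sequence. Both Dock1 peaks had a copy number of 1. At Rgma, a repulsive guidance molecule, a ZHX1 peak (chr7:73375836-73376063) and a Zhx1-KO hnRNPA1 peak (chr7:73375693-73376039) also overlapped near a TSS, and both were named A730056A06Rik.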

How the data were processed

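ChIP-seq peak positions were analysed for ZHX1 and hnRNPA1 in 46C-Ctrl and for hnRNPA1 in Zhx1-KO, with 1 library per group by the sample titles. The authors trimmed reads with cutadapt 1.18, kept those of 50 bases or more, aligned them to GRCm38 with Bowtie2 2.3.5.1 (GENCODE M19) and removed non-unique and duplicate reads, and BWA 0.7.12-r1039 and deepTools 3.3.0 stand in the submitters' processing notes as well. Removal of non-unique reads limits what could be called in repeated sequence. For the peak caller, its threshold and the use of the inputs, the entry is: not given in the sources used here. The deposited lists hold positions and a gene name per peak, with no score or count.

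Positions are 1-based on GRCm38. Promoters and gene bodies came from GENCODE M21, and the nearest TSS and its stretch of genome from curated RefSeq transcripts of GRCm38. Every member was matched. Sequence was read from the RefSeq GRCm38 genome. Shares carry Wilson and densities exact Poisson 95% intervals, which cover counting error only, and the interval of a ratio of peak numbers comes from the exact Clopper-Pearson interval of a share. Members and lists were chosen with earlier results of these data known. The 3 widest and 4 most frequent members of each list, those with shared, promoter or no peaks, and all members by family were named, with up to 6 other pathway genes where positions overlapped or promoter peaks recurred (Vav2, Draxin, Plxnb2 and Rgma were named after their values were seen). UTR sequence is not shown. Some items that the naming rule picked are not reported here. Scripts ran on Python 3.11.15 with pandas 2.3.3, numpy 2.4.6, numba 0.67.0, scipy 1.17.1 and, for plots, matplotlib 3.10.9. The overlap step was tested on simulated data. Alternatives were gene-body assignment, peaks of at least 250 bp, peaks with a copy number below 2, promoters of 1 and 5 kb, other overlap rules and 10 kb added to genes.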

Additional observations from a re-analysis of the deposited data

How the results depend on the processing

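Of 48 alternatives, 33 left the value within its spread or within 1.5 times its count, and 15 moved it. Assignment by gene body in place of the deposited name lowered the members' share of the lists to 0.331% for ZHX1, 0.382% for hnRNPA1 in 46C-Ctrl and 0.355% in Zhx1-KO, which changed the order of the lists. It also took the Zhx1-KO to 46C-Ctrl hnRNPA1 ratio of member peaks from 4.28 to 3.27 and the ZHX1 to hnRNPA1 ratio from 1.72 to 1.38, from above to below the ratios of the list lengths, 3.52 and 1.59, and the cause was not tested. With only peaks of at least 250 bp, gene-body densities became 2.99, 2.52 and 8.43 peaks per Mb in this order, which follows from fewer peaks, and 8 members kept a Zhx1-KO promoter peak. Without multi-copy peaks, the Zhx1-KO density became 12.3 per Mb, the position shared by both 46C-Ctrl lists was lost (0 left), and 2 of those shared by ZHX1 and Zhx1-KO hnRNPA1 were left. Promoters of 5 kb gave 7 members for hnRNPA1 in 46C-Ctrl and 20 in Zhx1-KO. Overlap of at least 0.5 of the shorter peak left 3 positions shared by ZHX1 and Zhx1-KO hnRNPA1. Centres within 1 kb gave 3 positions for both 46C-Ctrl lists and 4 for both hnRNPA1 lists. With 1 library per group, no replicate could be left out and no sample paired, and the lack of read counts leaves the effect of depth unknown.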
